A study of Homo sapiens with 4 samples.

Results

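The cells described here are microglia-like cells with high counts of 7 genes that are known for G2 and mitosis. Members were chosen by these measured values: a cell counted as one when the summed UMIs (unique molecular identifiers, each standing for 1 captured transcript) of 7 genes, MKI67, TOP2A, CCNB1, CCNB2, UBE2C, CENPF and BIRC5, reached at least 5 per 10000 UMIs of the cell. Of 16937 cells that passed the filters, 1602 (9.46%) met this rule, 832 in library 1 and 770 in library 2, and 15335 did not and are called the other cells. By genes outside the rule, 318 members (19.9%) had transcripts of S phase without those of late mitosis, so the cells are called members and not G2 or mitotic cells. The starting line was H9, human embryonic stem cells in long use, which were differentiated through monocyte-like cells grown with M-CSF and IL3, and were then kept for 7 days in a serum-free medium that held TGF-β, IL-34, cholesterol and M-CSF. The design had 4 conditions of 3 cultures: Sema (2 µM semagacestat, a γ-secretase inhibitor, for 22 h, with PBS as the vehicle of LPS), LPS (200 ng/mL lipopolysaccharide for the last 6 h, with DMSO as the vehicle of the inhibitor), SemaLPS (both agents) and Ctrl (both vehicles). Every culture was collected in actinomycin D, which blocks new transcription, was stained with its own hashtag antibody, and gave about 2000 cells to a pool that was divided into the libraries. The study asked how the loss of γ-secretase processing changes transcription in these cells and whether LPS overrides that effect. All cultures came from a single line, so the spread between cultures holds no difference between donors. M-CSF, a growth factor of macrophages, was present in every group.

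A cell that has copied its DNA passes through G2, when it builds cyclin B and the mitotic kinases, and enters mitosis once cyclin B and CDK1 are active together. In mitosis chromosomes condense, kinetochores attach to spindle microtubules, the spindle checkpoint holds the anaphase-promoting complex (APC/C) until all are attached, and the APC/C then marks securin and cyclin B for destruction. Transcripts of these genes are made mainly from late S phase into mitosis, and their promoters are known for a short element, the cell cycle genes homology region (CHR), with CCAAT boxes upstream. Genes of DNA replication peak earlier, and their promoters are known for sites of the E2F factors. In the brain microglia renew by local division under signals of the M-CSF receptor, CSF1R, and macrophages that meet LPS switch on NF-kB targets.

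Promoters of genes on which the results turn are shown here so that the mitotic, replication and LPS-induced groups can be compared letter by letter. Each is the 200 bases before the transcription start in RefSeq on GRCh38.p14, on the strand of the gene and 5′ to 3′. In the first 6, capitals mark CHR forms (TTTGAA or TTTAAA) and CCAAT boxes, each in either orientation. The genes encode the proliferation marker MKI67, the mitotic cyclins CCNB1 and CCNB2, the APC/C activator CDC20, the mitotic kinase PLK1 and the spindle and hyaluronan-binding protein HMMR.
MKI67: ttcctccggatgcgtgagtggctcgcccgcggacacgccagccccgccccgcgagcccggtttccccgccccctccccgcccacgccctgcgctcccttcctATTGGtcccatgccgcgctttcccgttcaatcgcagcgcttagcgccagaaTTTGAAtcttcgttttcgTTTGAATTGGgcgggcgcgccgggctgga
CCNB1: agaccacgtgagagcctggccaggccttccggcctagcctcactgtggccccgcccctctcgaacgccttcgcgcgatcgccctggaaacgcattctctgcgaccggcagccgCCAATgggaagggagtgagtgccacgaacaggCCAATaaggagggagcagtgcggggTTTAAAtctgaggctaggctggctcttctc
CCNB2: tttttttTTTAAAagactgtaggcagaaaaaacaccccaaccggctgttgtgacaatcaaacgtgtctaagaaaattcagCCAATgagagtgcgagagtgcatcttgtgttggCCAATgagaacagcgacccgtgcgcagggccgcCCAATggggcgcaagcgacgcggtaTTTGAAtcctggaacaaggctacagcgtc
CDC20: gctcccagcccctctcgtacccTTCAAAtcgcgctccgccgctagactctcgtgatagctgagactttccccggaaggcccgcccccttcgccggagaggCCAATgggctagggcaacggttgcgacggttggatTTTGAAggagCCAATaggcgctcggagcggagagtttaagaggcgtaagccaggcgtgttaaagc
PLK1: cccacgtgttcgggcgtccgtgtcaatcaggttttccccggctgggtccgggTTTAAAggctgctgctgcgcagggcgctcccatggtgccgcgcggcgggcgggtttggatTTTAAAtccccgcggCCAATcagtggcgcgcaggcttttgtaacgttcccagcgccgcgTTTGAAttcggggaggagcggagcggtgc
HMMR: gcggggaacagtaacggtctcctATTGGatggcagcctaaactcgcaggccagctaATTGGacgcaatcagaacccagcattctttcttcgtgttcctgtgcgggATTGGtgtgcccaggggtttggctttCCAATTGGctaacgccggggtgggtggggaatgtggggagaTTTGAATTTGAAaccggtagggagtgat
They lie at chr10:128126424-128126623 (minus strand, MKI67), chr5:69166950-69167149 (plus strand, CCNB1), chr15:59104946-59105145 (plus strand, CCNB2), chr1:43358781-43358980 (plus strand, CDC20), chr16:23678689-23678888 (plus strand, PLK1) and chr5:163460432-163460631 (plus strand, HMMR). In CCNB2 and PLK1 a TTTGAA began 29 bases before the start, in CCNB1 a TTTAAA began 30 bases before it, and in MKI67 a TTTGAA that began 29 bases before the start overlapped a CCAAT box in the reverse orientation. CCNB2 held 3 CCAAT boxes, which began 120, 87 and 54 bases before the start. In HMMR the 2 TTTGAA copies stood next to each other.

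The next 2 promoters belong to the replication helicase genes MCM6 and MCM3, with capitals on E2F-type words (TTTCCCGC or TTTGGCGC) and CCAAT boxes.
MCM6: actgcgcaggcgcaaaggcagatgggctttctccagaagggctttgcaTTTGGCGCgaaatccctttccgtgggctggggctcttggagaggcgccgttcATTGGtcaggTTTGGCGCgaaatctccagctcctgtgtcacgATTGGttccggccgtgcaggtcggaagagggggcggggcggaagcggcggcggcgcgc
MCM3: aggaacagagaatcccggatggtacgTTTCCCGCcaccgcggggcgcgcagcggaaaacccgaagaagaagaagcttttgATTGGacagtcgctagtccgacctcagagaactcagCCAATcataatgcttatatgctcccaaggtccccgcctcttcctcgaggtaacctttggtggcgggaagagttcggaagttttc
The last 2 belong to LPS-induced genes, the chemokine CXCL10 and the NF-kB inhibitor NFKBIA, with capitals only on the NF-kB-type word, GGG and TTCC with any 3 bases between them, in either orientation.
CXCL10: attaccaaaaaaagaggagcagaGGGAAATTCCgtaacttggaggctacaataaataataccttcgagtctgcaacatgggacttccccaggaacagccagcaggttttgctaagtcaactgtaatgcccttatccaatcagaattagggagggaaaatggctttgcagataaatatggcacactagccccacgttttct
NFKBIA: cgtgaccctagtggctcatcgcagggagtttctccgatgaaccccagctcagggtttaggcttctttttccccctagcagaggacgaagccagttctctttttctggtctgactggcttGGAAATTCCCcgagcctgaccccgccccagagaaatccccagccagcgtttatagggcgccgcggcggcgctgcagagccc
They lie at chr2:135876444-135876643 (minus strand, MCM6), chr6:52284743-52284942 (minus strand, MCM3), chr4:76023498-76023697 (minus strand, CXCL10) and chr14:35404750-35404949 (minus strand, NFKBIA).

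The same words were searched on both strands of the 250 bases before every start in the table, 35116 promoters of 27305 genes. A TTTGAA or TTTAAA stood in 54.93% of 71 promoters of the mitotic lists (64 of 77 genes matched), in 16.13% of 31 promoters of the DNA replication list (21 of 25 genes) and in 21.86% of all promoters. TTTGAA alone stood in 46.48% of the mitotic, 3.226% of the replication and 13.32% of all promoters. CCAAT stood in 69.01% of the mitotic promoters, in 70.97% of the replication promoters and in 32.01% of all. The E2F-type words stood in 35.48% of the replication promoters, in 7.042% of the mitotic ones and in 1.928% of all. The NF-kB-type word stood in 34.38% of 32 promoters of the NF-kB and cytokine list (21 of 25 genes) and in 5.673% of all. Of the 7 genes of the rule, 5 matched, and all 5 promoters held a CHR form and 2 or more CCAAT boxes. Motifs overlapped in 0.296% of all promoters. A match is a word in the sequence and no more, and a missing match says only that these letters are not in this window.

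The values that chose the members are given as a description. In the members the 7 genes together had a median of 18.0 UMIs per 10000, against 0.293 in the other cells, and 1095 members (68.4%) held at least 1 UMI of each of the 7, against 0.150% of other cells. MKI67 averaged 440 CPM in members and 4.07 CPM in other cells (CPM is the usual depth-scaled unit, computed here from a culture's summed UMIs after TMM scaling and averaged over 12 cultures). On the same scale TOP2A, the topoisomerase that untangles sister chromatids, averaged 545 in members and at most 24.2 in any culture of other cells. CENPF, a kinetochore protein, averaged 445 and 10.4 CPM, and UBE2C, the ubiquitin-conjugating enzyme of the APC/C, 308 and 3.96 CPM. The cyclins CCNB1 and CCNB2 averaged 135 and 112 CPM in members, against 8.93 and 10.4 CPM in other cells. BIRC5 (survivin, of the chromosomal passenger complex) averaged 112 CPM in members and 1.78 CPM in other cells. A UMI of MKI67 was found in 97.2% of members and in 8.02% of other cells, at median depths of 36706 and 29530 UMIs per cell. The threshold cut a continuous range: 101 cells lay at 5 to 6 per 10000 and 151 at 4 to 5. Just inside it, the median of the late mitosis genes described further on was 1.60 per 10000, and just outside it 1.56.

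The microglia markers named here were found about as often in members as in other cells, at median depths of 36706 and 29530 UMIs per cell. C1QA, a complement gene of microglia, was found in 98.9% of members and 97.1% of other cells, TREM2, a lipid receptor of microglia, in 97.0% and 97.8%, and CSF1R in 93.7% and 91.1%. AIF1, which encodes the microglial protein IBA1, was found in 99.7% of both. By level, most microglia and macrophage identity genes were lower in members, while AIF1 was higher, as described further on. A share of cells with a UMI includes free RNA, and no cell type that lacks these genes was there to measure it. The G2 and mitosis side of the name rests on the genes that chose the members, and the late mitosis genes described further on were below their threshold in 318 members with S-phase transcripts and in 61 without. Summed levels of the marker lists of granulocyte precursors, mast cells, erythroid and pluripotent cells reached at most 1.37 CPM in any culture of members and 1.26 CPM in any culture of other cells. In members 3 of the 5 precursor genes, 3 of the 5 mast cell genes, 6 of the 7 erythroid genes and 1 of the 6 pluripotency genes were at 0. Fibroblast markers summed to at most 3.92 CPM in members, with 2 of 6 genes at 0, and to at most 53.4 CPM in other cells. The dendritic, lymphoid, endothelial and epithelial lists summed to 18.6 to 97.5 CPM in members, largely through single genes (CD1C, NKG7, PECAM1 and CDH1) that macrophages can also express. Neural markers summed to 9.63 to 20.2 CPM in members and 16.5 to 32.9 CPM in other cells, and megakaryocyte markers to at most 4.00 and 7.25 CPM. The part of these markers in the results was not tested.

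Depth was higher in members. The median member held 32960 to 42541 UMIs in the 12 cultures, against 27199 to 31611 in the median other cell, a mean ratio of 1.26 that was above 1 in 12 of 12 cultures (two-sided exact sign-flip permutation test, p = 0.000488, the smallest possible). The median number of genes per cell averaged 5857 ± 116 in members and 4964 ± 45.2 in other cells (SD, n = 12, same exact p). The mitochondrial share averaged 7.94% in members and 8.15% in other cells and was lower in members in 11 of 12 cultures (exact p = 0.000977). No doublet caller was run. Barcodes with 2 strong hashtags had been removed, but a pair of cells of the same culture cannot be told from 1 large cell. Members with more than 2 times the median UMIs of the other cells of their culture made up 2.41 to 12.2% per culture. Of the other cells, 1.90 to 4.16% lay above the same limit. The libraries shared 91 barcode sequences, of which 24 were kept in both and none was a member in both.

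Members ranged from cells with S-phase transcripts only to cells with late mitosis transcripts only. These names are labels of gene lists, and passing a list does not time a cell within the cycle. Genes outside the rule were used to sort the members. The S-phase list (MCM3, MCM5, MCM6, PCNA, TYMS, CLSPN and GINS2) was passed at 5 or more per 10000. The late mitosis list (CDC20, PLK1, AURKA, HMMR, CENPE, TPX2 and KIF20A) was passed at 3 or more per 10000. Of the 1602 members, 318 (19.9%) passed the S-phase list only, 924 (57.7%) both, 299 (18.7%) the late list only and 61 (3.81%) neither. Cyclin E2, CCNE2, which acts at the start of S phase, had 1.06 UMIs per 10000 in members with S-phase transcripts only, 0.664 in those with both and 0.024 in those with late transcripts only. RRM2, a subunit of ribonucleotide reductase, peaked in the cells with both, at 2.02, against 1.08 and 0.407. The histone gene HIST1H4C did so too, at 12.6, against 3.23 and 3.91. Securin, PTTG1, ran the other way, with 0.501, 1.76 and 4.52. The APC/C activator CDC20 had 0.168, 0.766 and 2.10, but it belongs to the late mitosis list, so its rise follows from the split. The tubulin gene TUBA1B had 22.1, 32.8 and 37.2, while C1QA stayed between 4.58 and 5.00 in all 3. These lists share cells with the rule, so the order of the genes is a description.

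The share of members among all cells varied widely between cultures of some conditions. It was 14.4, 11.2 and 12.0% in Sema cultures, 7.75, 5.41 and 6.42% in LPS cultures, 11.4, 6.43 and 7.65% in SemaLPS cultures and 15.2, 6.74 and 8.83% in Ctrl cultures. Exact Clopper-Pearson 95% intervals, which cover counting error only, ran from 4.27 to 6.74% for the lowest culture and from 13.2 to 17.4% for the highest. The Sema cultures all lay above the LPS cultures, and Ctrl and SemaLPS cultures overlapped both. The culture numbered 1 had the highest share in each condition. Over both inhibitor levels the share averaged 7.51% ± 2.11 with LPS and 11.4% ± 3.24 without it (SD, n = 6 each), a difference of -3.89 percentage points. The two-sided exact permutation test gave p = 0.0346 and 0.208 after Benjamini-Hochberg adjustment over 6 comparisons, so the difference did not pass. That test did not use the culture number. Within each culture number, both cultures with LPS lay below both cultures without it. With semagacestat the share averaged 10.5%, against 8.40% without it (exact permutation p = 0.271). With 3 against 3 cultures the exact permutation test cannot go below p = 0.1, and here gave 0.2 to 0.5. The LPS difference depended on where the population was cut, and was -6.29 points at a score of 3 or more and -1.40 points at 10 or more. It was -3.72 points in library 1 and -4.10 points in library 2.

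**Figure D1:**
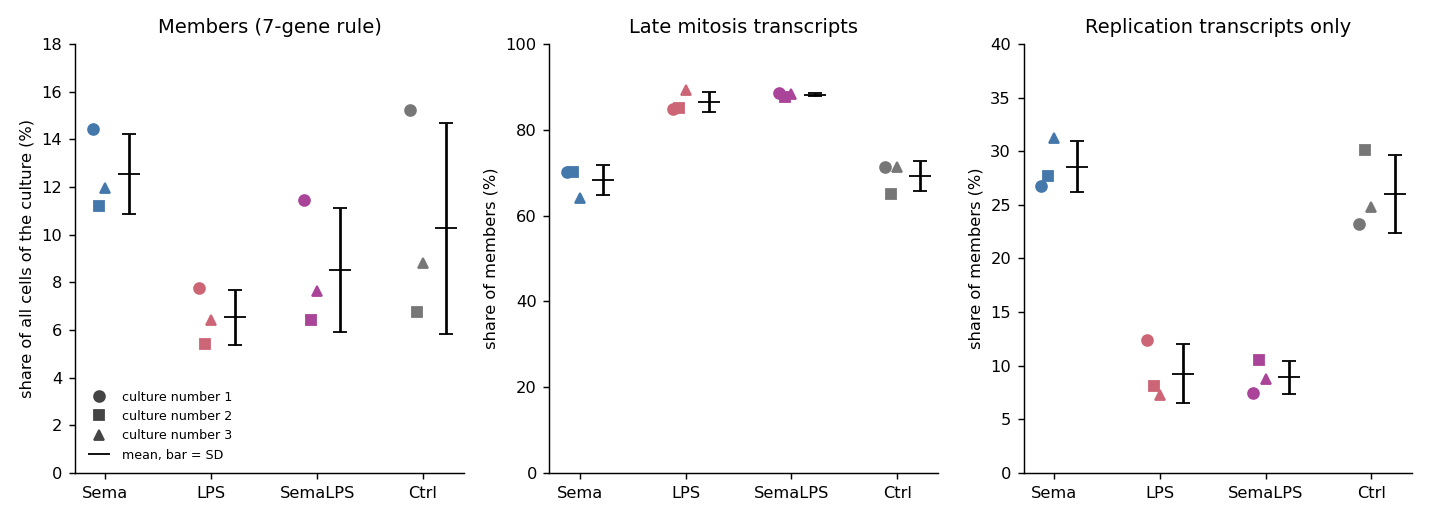
Share of members among all cells of a culture (percent, left), and shares of those cells with late mitosis transcripts (middle) and with replication transcripts only (right). Each symbol is 1 culture, shaped by its number, with the mean and SD of 3 cultures beside it: on the left the Sema cultures lie above the LPS cultures and the Ctrl cultures overlap all others, and in the middle all cultures with LPS lie above all cultures without it.

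The make-up of the population differed with LPS. Members with late mitosis transcripts made up 85.0, 85.1 and 89.2% of members in LPS cultures, 88.5, 87.7 and 88.3% in SemaLPS cultures, 70.2, 70.2 and 64.1% in Sema cultures and 71.3, 65.1 and 71.3% in Ctrl cultures. All 6 cultures with LPS lay above all 6 without it. The mean was 87.3% ± 1.81 with LPS and 68.7% ± 3.22 without (SD, n = 6 each), a difference of 18.6 points (two-sided exact permutation test p = 0.00216, the smallest possible, adjusted p = 0.0130 over 6 comparisons). With permutations kept within the replicate number the exact permutation p was 0.00926, the smallest that design allows, and the adjusted p 0.0556, which does not pass. The difference was 18.1 points in library 1 and 19.1 in library 2, and 16.2 points in cells thinned to 10000 UMIs each. It was 4.40 points at a member score of 10 or more and 23.7 at 3 or more. Members with S-phase transcripts only were 7.23 to 12.4% of members with LPS, against 23.2 to 31.2% without it. As a share of all cells, late members ranged from 4.61 to 10.1% with LPS and from 4.38 to 10.9% without it, which overlap. With semagacestat the late share averaged 78.2%, against 77.8% without it (exact permutation p = 0.896). Among the other cells, those that passed the S-phase list were 2.86 to 5.19% with LPS and 4.09 to 10.9% without it, 810 cells in all.

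**Figure D2:**
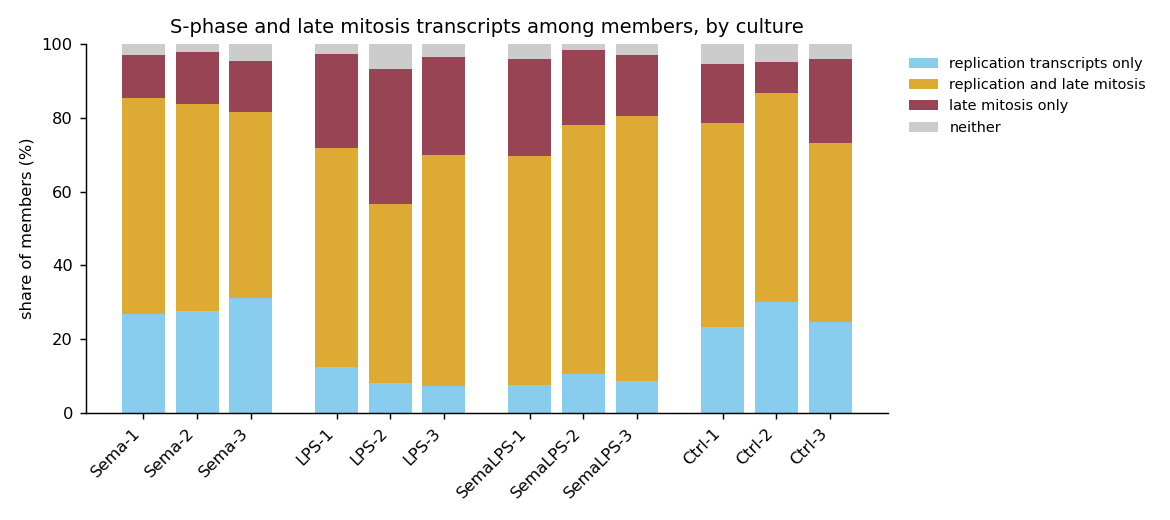
S-phase and late mitosis transcripts among members: each bar is 1 culture and shows the percent of its members with S-phase (replication) transcripts only, with both lists, with late mitosis transcripts only and with neither. The bottom segment, replication transcripts only, is 7.23 to 12.4% in the 6 cultures with LPS and 23.2 to 31.2% in the 6 without it.

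The 7 rule genes aside, counts were summed per culture and state and tested with edgeR's quasi-likelihood F test with the culture as a block. Genes of the cell cycle vary with the rule genes in the same cells, so for them the counts below describe the cells that the rule chose. Of 13086 genes, 33.0% were higher and 35.2% lower in members at an adjusted p under 0.05, and 6.17% were more than 2-fold higher and 3.21% more than 2-fold lower. The median log2 fold change of all genes was -0.03.

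All 13 mitotic kinases were higher in members, with a median log2 fold change of 4.26. CDK1, the partner of cyclin B, had 240, 273 and 337 CPM in members (lowest, median and highest of 12 cultures), against 8.51, 10.9 and 13.7 CPM in other cells, a log2 fold change of 4.65 ± 0.05 (SE). PLK1, which drives centrosome maturation and mitotic entry, had 46.8, 63.2 and 75.7 CPM in members and 0.575, 0.694 and 0.904 CPM in other cells (6.42 ± 0.08). No culture of other cells came near a culture of members for either gene. TTK, the kinase that starts the spindle checkpoint, was 4.41 higher on the log2 scale. All 7 CDC25 phosphatases and G2 cyclins with their CKS partners were higher (median 3.40). Cyclin A2, CCNA2, averaged 127 CPM in members and 2.74 CPM in other cells (5.54 ± 0.09), and CKS1B, a small adaptor of CDKs, 302 and 42.7 CPM (2.81 ± 0.04).

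The genes of chromosome attachment followed. All 20 genes of the chromosomal passenger complex, centromere and kinetochore were higher (median 4.57). NDC80, whose protein binds microtubules, averaged 85.0 CPM in members and 0.861 CPM in other cells (6.62 ± 0.09), SPC25 of the same complex differed by 6.17 ± 0.08 and the motor CENPE by 4.15 ± 0.06. All 6 spindle checkpoint genes were higher (median 2.39): BUB1B by 5.15 ± 0.08, at 76.6 CPM in members and 2.14 CPM in other cells, and BUB3 by 1.46 ± 0.03. All 20 spindle motors and microtubule factors were higher (median 5.20). DLGAP5, a spindle assembly factor, had 112, 128 and 140 CPM in members and 0.675, 0.955 and 1.27 CPM in other cells, the largest difference of that list (7.02 ± 0.07). TPX2, which activates Aurora A on the spindle, averaged 217 CPM in members and 6.83 CPM in other cells (4.99 ± 0.06), and the kinesin KIF2C differed by 6.15 ± 0.08. The 8 tubulins were all higher but by less (median 1.34) than the motors. TUBB had 1317, 1411 and 1582 CPM in members, against 357, 394 and 424 CPM in other cells (1.87 ± 0.04).

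**Figure D3:**
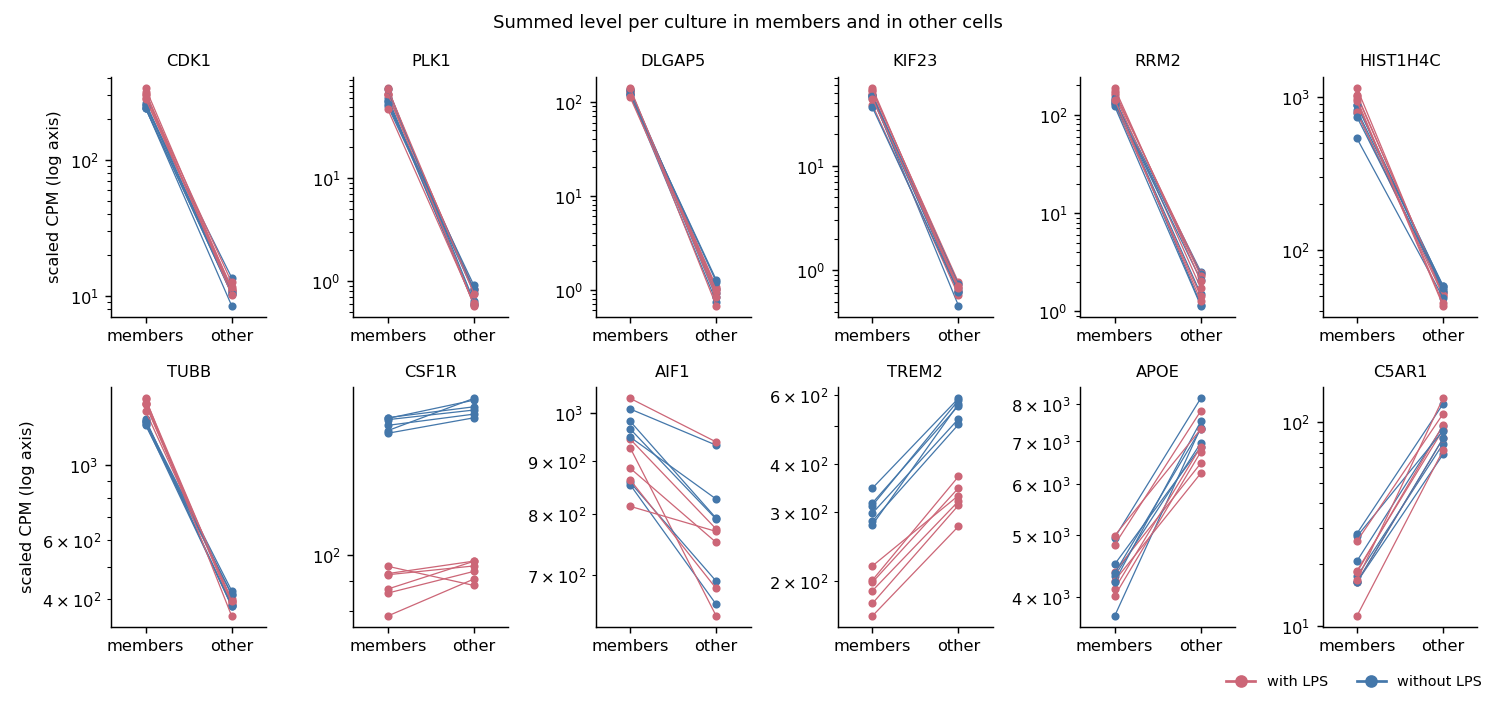
Scaled CPM (log axes) of 12 genes per culture, in members (left) and other cells (right) of the same culture, joined by lines, cultures with LPS in red and without in blue. The lines of CDK1, PLK1, DLGAP5, KIF23, RRM2, HIST1H4C and TUBB fall from members to other cells in every culture, while those of TREM2, APOE and C5AR1 climb.

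Genes of mitotic exit were mostly higher, by amounts that differed between lists. Of 18 genes of the APC/C and its regulators, 14 were higher and 1, the subunit CDC26, was lower, with a median of 0.44. The large differences lay in the regulators: UBE2S, which extends ubiquitin chains for the APC/C, averaged 272 CPM in members and 44.8 CPM in other cells (2.61 ± 0.03), securin, PTTG1, 207 and 16.1 CPM (3.68 ± 0.05), and the APC/C inhibitor FBXO5 differed by 3.80 ± 0.05. All 12 genes of cohesin, its regulators and separase were higher (median 1.28), from the ring subunit SMC1A (1.35 ± 0.03) to CDCA5, or sororin, which keeps cohesin on sister chromatids (4.88 ± 0.10), and the cohesin protector SGO1 (3.66 ± 0.08). All 8 condensin genes were higher (median 3.12), among them NCAPG, at 124 CPM in members and 2.69 CPM in other cells (5.52 ± 0.09). All 14 chromatin proteins were higher (median 2.51). HIST1H4C, a histone H4 gene, had 539, 894 and 1150 CPM in members, against 43.6, 53.3 and 58.9 CPM in other cells (4.06 ± 0.08). The DNA-bending protein HMGB1 averaged 1746 and 535 CPM (1.70 ± 0.03). Replication-dependent histone transcripts mostly lack a poly(A) tail, so 3′ counts see only part of them. All 9 lamina and envelope genes were higher (median 1.09), with LMNB1, lamin B1, at 79.9 and 13.5 CPM (2.59 ± 0.06). All 10 cytokinesis genes were higher (median 5.20): KIF23, the motor of the midzone, averaged 46.8 CPM in members and 0.652 CPM in other cells (6.14 ± 0.06), and the bundling protein PRC1 136 and 4.03 CPM (5.07 ± 0.07).

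Of 13 transcription regulators of the cycle 12 were higher (median 2.48), among them MYBL2, which activates CHR genes (4.81 ± 0.08), and the repressors E2F7 (5.18 ± 0.09) and E2F8 (5.93 ± 0.11). RBL2, a pocket protein of resting cells, did not pass. All 25 DNA replication genes were higher too (median 2.91). RRM2 had 122, 143 and 187 CPM in members, against 1.14, 1.89 and 2.54 CPM in other cells (6.31 ± 0.08), TYMS, which makes thymidylate, averaged 400 and 17.9 CPM (4.49 ± 0.07), and PCNA, the replication clamp, 291 and 42.6 CPM (2.77 ± 0.05). Of 18 CDK inhibitors and G1 cyclins 10 were higher and 6 lower. CDKN3, a phosphatase that acts on CDKs, was 5.35 ± 0.07 higher, CDKN2C, an inhibitor of CDK4 and CDK6, 4.50 ± 0.08 higher and CCNE2 3.91 ± 0.10 higher. The genes that were lower were CDKN1C, CDKN2B, CCND1, CCND2, CDK6 and CCNG2. CDKN1A, or p21, averaged 114 CPM in members and 120 CPM in other cells and did not pass (log2 fold change -0.10 ± 0.06, adjusted p = 0.154). Outside all the lists, the largest differences were again of dividing cells: the linker histone HIST1H1B, at 211 and 1.13 CPM (7.55 ± 0.11), the histones HIST1H3G (6.73 ± 0.11) and HIST1H3B (6.56 ± 0.08), and GTSE1, a G2 and S phase-expressed regulator of p53 (6.36 ± 0.07).

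**Figure D4:**
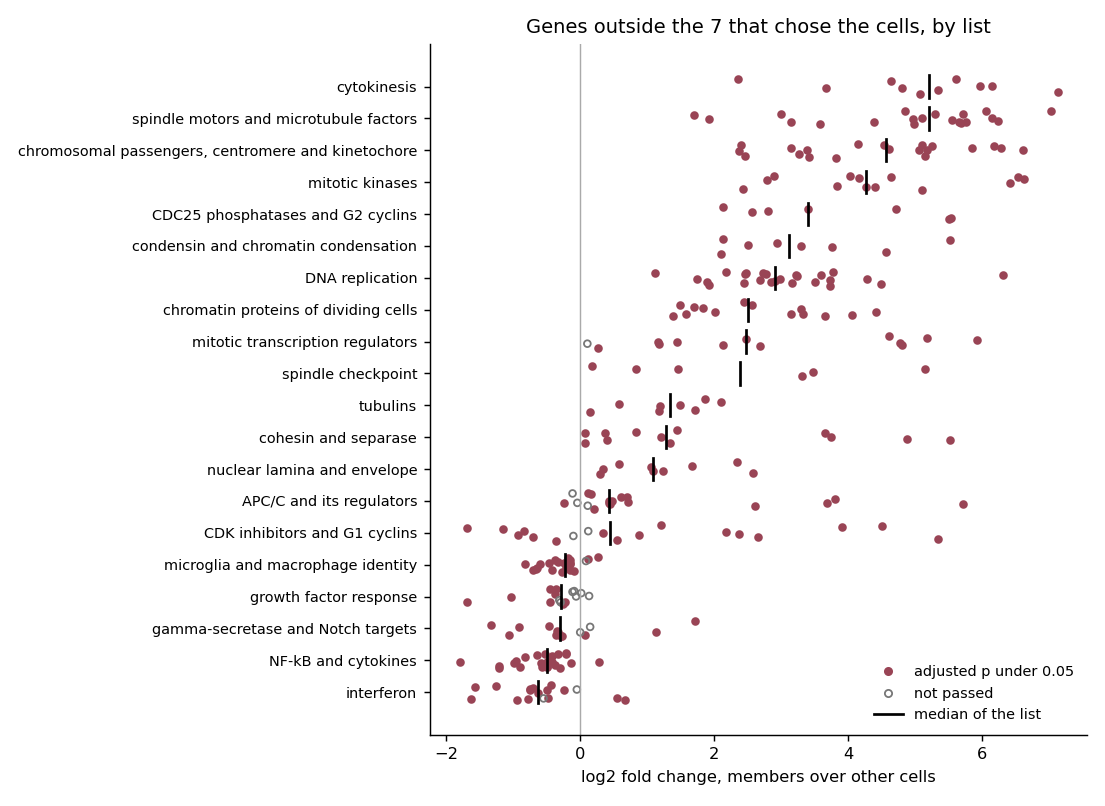
Log2 fold change (horizontal axis), members over other cells, of the genes of 20 lists, each point 1 gene, filled where it passed, with the median of the list as a bar. All genes of the kinase, kinetochore, motor and cytokinesis lists lie above 0, and all of the NF-kB list but CCL2 lie below it.

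Genes of macrophage function were lower in members, by much less. Of 22 microglia and macrophage identity genes 19 were lower and 2, AIF1 and OLFML3, higher, with a median log2 fold change of -0.23. TREM2 had 162, 248 and 346 CPM in members (lowest, median and highest of 12 cultures), against 276, 437 and 588 CPM in other cells, and was lower in members in 12 of 12 cultures (log2 fold change -0.82 ± 0.03, edgeR adjusted p = 1.71e-16). The ranges over all cultures overlap because both states are lower with LPS. TYROBP, the signalling adaptor of TREM2, averaged 1351 CPM in members and 2047 CPM in other cells (-0.60 ± 0.02, adjusted p = 4.68e-16). APOE, a lipoprotein of microglia, averaged 4388 and 7137 CPM (-0.70 ± 0.03, adjusted p = 5.29e-15) and its ranges did not overlap. The receptor CSF1R differed little, at 129 and 138 CPM (-0.09 ± 0.03, adjusted p = 0.00572), and AIF1 was higher, at 923 and 770 CPM (0.27 ± 0.03, adjusted p = 1.54e-07).

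Of 25 NF-kB and cytokine genes 24 were lower in members and CCL2 was higher (median -0.49). IL1B averaged 589 CPM in members and 1021 CPM in other cells (-0.82 ± 0.04, adjusted p = 1.02e-14), SOD2, the mitochondrial superoxide dismutase, 1427 and 2463 CPM (-0.64 ± 0.05, adjusted p = 1.14e-10) and ICAM1, an adhesion molecule, 96.3 and 137 CPM (-0.49 ± 0.03, adjusted p = 2.96e-11). Each was lower in 12 of 12 cultures. Of 17 interferon genes tested 13 were lower, and OAS3 and CXCL10 were higher (median -0.63). Of 15 growth factor response genes 8 were lower and none higher (median -0.29), with PHLDA1 at 29.8 and 60.9 CPM (-1.02 ± 0.06, adjusted p = 1.38e-12). Of 14 γ-secretase and Notch genes tested 9 were lower and APH1A, HES4 and NRARP were higher (median -0.31). APH1B, a subunit of γ-secretase, averaged 11.9 CPM in members and 22.2 CPM in other cells (-0.91 ± 0.07, adjusted p = 2.58e-10). These differences stand beside a background in which 35.2% of all genes were lower.

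The 10 largest falls outside the cell-cycle lists were of TIMP3, MMP7, C5AR1, AQP9, RGCC, HBEGF, ATF3, CLEC19A, GLDN and KDM5B. C5AR1, the receptor of the complement fragment C5a, had 11.2, 17.9 and 28.3 CPM in members (lowest, median and highest), against 69.2, 91.0 and 130 CPM in other cells, and the ranges did not overlap (-2.24 ± 0.07, adjusted p = 2.18e-17). TIMP3, an inhibitor of metalloproteinases, averaged 22.9 CPM in members and 134 CPM in other cells (-2.54 ± 0.19), the protease MMP7 59.4 and 248 CPM (-2.24 ± 0.23), and the glycerol channel AQP9 7.39 and 30.1 CPM (-2.06 ± 0.09). HBEGF, a growth factor, had a log2 fold change of -1.78 ± 0.09 and ATF3, a stress-induced transcription factor, one of -1.77 ± 0.08. Each of these genes was lower in members in 12 of 12 cultures.

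Within the members, all 25 genes of the NF-kB and cytokine list were higher with LPS, while 12 of 22 identity genes and 13 of 25 DNA replication genes were lower. Of 11388 genes, 17.3% were higher and 16.0% lower in LPS than in Ctrl members at an adjusted p under 0.05 (edgeR, all 12 cultures in 1 fit). All 25 NF-kB and cytokine genes rose, each by more than 2-fold (median log2 fold change 3.37, against -0.01 over all genes). CXCL8, the neutrophil chemokine IL-8, had 864, 702 and 893 CPM in LPS members, against 32.7, 21.9 and 21.9 CPM in Ctrl members (4.94 ± 0.12, adjusted p = 9.09e-21). CCL4, another chemokine, averaged 2803 and 173 CPM (4.03 ± 0.07, adjusted p = 7.22e-25), and SOD2 2652 and 268 CPM (3.30 ± 0.07, adjusted p = 1.06e-22). CXCL10 had 53.0, 31.1 and 91.0 CPM in LPS members and 1.95, 0.322 and 0.521 CPM in Ctrl members (5.62 ± 0.53, adjusted p = 3.26e-09). In none of these did the cultures overlap. CXCL10 was near the floor in Ctrl members, so the size of its rise is only roughly known. TNFRSF9, CCL1 and CD70, a receptor, a chemokine and a ligand of activated immune cells, rose by 4.97 to 5.30 on the log2 scale. Of 16 interferon genes 10 rose and 1 fell.

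Of the 22 identity genes 7 rose and 12 fell with LPS (median -0.32). GPR34, a lysophosphatidylserine receptor of microglia, had 43.7, 41.3 and 27.9 CPM in LPS members, against 198, 216 and 204 CPM in Ctrl members (-2.44 ± 0.10, adjusted p = 2.69e-16). MEF2C, a transcription factor of microglia, averaged 149 and 446 CPM (-1.59 ± 0.06, adjusted p = 1.53e-16). CEBPA, a transcription factor of myeloid differentiation, averaged 5.84 and 35.2 CPM (-2.55 ± 0.18), the growth factor IGF1 7.64 and 39.3 CPM (-2.36 ± 0.16), and SUSD3 and DDIT4L fell by 2.48 and 2.22 on the log2 scale. The cultures did not overlap for any of these. In the γ-secretase and Notch list 4 of 14 rose and NOTCH1 fell, to 24.8 CPM in LPS members, against 57.5 CPM in Ctrl members (-1.22 ± 0.12, adjusted p = 3.45e-09).

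Cell-cycle genes moved little by comparison. None of 25 DNA replication genes rose and 13 fell (median -0.31). MCM5, of the replicative helicase, had 46.2, 42.0 and 45.8 CPM in LPS members, against 77.1, 82.3 and 74.0 CPM in Ctrl members (-0.79 ± 0.10, adjusted p = 3.03e-07), MCM6 averaged 44.8 and 82.9 CPM (-0.86 ± 0.13) and MCM4 64.1 and 113 CPM (-0.80 ± 0.11). TYMS averaged 375 and 388 CPM and did not pass (adjusted p = 0.707). RB1, the retinoblastoma protein that holds back E2F, averaged 177 and 288 CPM (-0.70 ± 0.06, adjusted p = 8.71e-10), and E2F1 29.0 and 40.1 CPM (-0.46 ± 0.12, adjusted p = 0.00461). CDKN1A averaged 130 CPM in LPS members and 93.1 CPM in Ctrl members (0.49 ± 0.09, adjusted p = 8.92e-05), and did not pass in library 2 alone. LMNB1 fell, at 69.3 and 96.7 CPM (-0.49 ± 0.08, adjusted p = 1.99e-05).

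Among the genes of mitosis named here, UBE2S and PTTG1 changed most. UBE2S had 389, 353 and 355 CPM in LPS members, against 231, 192 and 210 CPM in Ctrl members (0.79 ± 0.08, adjusted p = 6.00e-09). PTTG1 averaged 277 ± 17.7 CPM in LPS members and 170 ± 31.8 CPM in Ctrl members (SD, n = 3 each; 0.69 ± 0.10, adjusted p = 3.71e-06). The LPS cultures lay above the Ctrl cultures for both. CKS1B rose by 0.42 ± 0.06 and the tubulin TUBA1C by 0.46 ± 0.07. Of 8 tubulins 6 rose and none fell, of 14 chromatin proteins 7 rose and none fell, and of 13 mitotic kinases 4 rose and none fell, CDK1 by 0.27 ± 0.06. Of 20 kinetochore genes 2 rose and CENPU fell (-0.41 ± 0.11), and of 20 motors 2 rose and 1 fell. Of 6 spindle checkpoint genes BUB3 and MAD2L1 rose, by 0.29 and 0.31, and MAD1L1 fell (-0.49 ± 0.16, adjusted p = 0.0190). Of 12 cohesin genes none rose, and the regulators PDS5A (-0.25 ± 0.09) and PDS5B (-0.39 ± 0.09) fell. MAD1L1 and the PDS5 genes were named after their values were seen. Of 18 APC/C genes 3 rose and none fell, of 10 cytokinesis genes 2 rose and 1 fell, and of 9 lamina genes 2 rose and 2 fell. Of 8 condensin genes 1 rose and none fell, and of 13 transcription regulators 2 fell and none rose. Over all genes tested 17.3% rose and 16.0% fell. The counts of the kinetochore, motor, APC/C, cohesin, cytokinesis, lamina, condensin and transcription regulator lists lie near or below these shares. So does the count of checkpoint genes that fell. In members with a score of 10 or more, CDK1 (0.13), BUB3 (0.15) and E2F1 (-0.19) no longer passed, while UBE2S, PTTG1, MCM5, MCM6 and RB1 did. CDK1 and BUB3 did not pass in library 2 alone, nor CENPU at a hashtag ratio of 10. PDS5B did not pass in library 1 alone. PDS5A did not pass in either library alone, by DESeq2, at a score of 3 or more or 10 or more, or at a hashtag ratio of 10. It also lost its call with some single cultures left out. The higher late share of members with LPS, given above, moves with these genes, and its part in them was not tested.

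The same contrast in the presence of the inhibitor, SemaLPS against Sema, rested on other cultures in the same fit and called 19.5% of genes higher and 19.1% lower. All 25 NF-kB genes rose again (median 3.27). Of 25 DNA replication genes 10 fell and 1 rose, of 14 chromatin proteins 10 rose, and of 22 identity genes 6 rose and 13 fell. UBE2S had 372, 371 and 298 CPM in SemaLPS members, against 198, 193 and 184 CPM in Sema members (0.86 ± 0.07, adjusted p = 4.94e-10). CDKN1A averaged 157 and 87.2 CPM (0.85 ± 0.08, adjusted p = 3.24e-09) and RB1 165 and 293 CPM (-0.82 ± 0.06, adjusted p = 1.20e-11). MCM5 averaged 52.0 and 82.1 CPM (-0.67 ± 0.08, adjusted p = 3.85e-07). For none of the 4 genes did the cultures overlap.

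Semagacestat alone called no gene in members. In Sema against Ctrl 0 of 11388 genes passed in either direction (0% higher and 0% lower) by edgeR, and 0 by DESeq2. With no filter on low counts 13 were higher and 20 lower. With the filter, 587 genes had an unadjusted p under 0.05. The median log2 fold changes of the mitotic kinases, the kinetochore genes and the DNA replication genes were -0.07, -0.05 and 0.09. RGCC, a regulator of the cell cycle, is described further on. In SemaLPS against LPS 1 gene was higher (0.00878% of those tested) and 4 were lower (0.0351%). MMP7 had 27.6, 18.2 and 20.0 CPM in SemaLPS members, against 132, 97.9 and 213 CPM in LPS members (-2.72 ± 0.30, adjusted p = 1.80e-05), and the groups did not overlap. It did not pass at a member score of 3 or more, at a hashtag ratio of 10 or in library 2. IL1B averaged 958 CPM in SemaLPS members and 1313 CPM in LPS members (-0.46 ± 0.09, adjusted p = 0.0479). DUSP1, a phosphatase of MAP kinases, averaged 19.7 and 32.4 CPM (-0.71 ± 0.12, adjusted p = 0.0371), TNFSF15, a TNF family ligand, 11.3 and 22.7 CPM (-1.02 ± 0.19, adjusted p = 0.0454) and MMD, a membrane protein of macrophages, 157 and 121 CPM (0.37 ± 0.07, adjusted p = 0.0454). The last 4 did not pass in either library on its own, and each lost its call with some single culture left out.

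Whether LPS changed members and other cells by different amounts was tested by the state by LPS term over all 24 sums. Of 13857 genes, the change was higher in members for 7.72% and lower for 6.52% (1070 and 904 genes). The balance turned under other settings, with 901 higher and 1026 lower with the size factors of DESeq2, 713 and 851 by its Wald test and 435 and 2098 with no filter on low counts. ACSL1, a fatty acid ligase, had 120 to 174 CPM in members of the 6 cultures with LPS and 31.1 to 39.8 CPM in members of the 6 without it. In other cells it had 404 to 474 CPM with LPS and 42.2 to 48.2 CPM without. Its change was 1.93 on the log2 scale in members and 3.25 in other cells, a difference of -1.33 ± 0.08 (adjusted p = 2.09e-14). STK17A, a kinase, rose by 0.34 in members and 1.42 in other cells (-1.07 ± 0.07, adjusted p = 2.53e-13), WTAP, of the RNA methylation complex, by 1.19 and 2.01 (-0.81 ± 0.05, adjusted p = 2.08e-13) and NIBAN1, a stress-response protein, by 1.57 and 2.43 (-0.88 ± 0.06, adjusted p = 2.53e-12). CCL2, a monocyte chemokine, had 523 to 1007 CPM in members with LPS and 73.8 to 107 CPM in members without, against 556 to 1043 and 47.4 to 69.7 CPM in other cells. Its change was smaller in members (3.03, against 3.94 in other cells, difference -0.90 ± 0.07, adjusted p = 7.83e-12). In the cultures without LPS its level was higher in members than in other cells.

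In the opposite direction, STMN1, or stathmin, which destabilises microtubules, had 769 to 968 CPM in members with LPS and 805 to 908 CPM in members without, while in other cells it had 71.5 to 91.3 CPM with LPS and 125 to 155 CPM without (difference 0.89 ± 0.04, adjusted p = 7.59e-16). CCSAP, a microtubule-associated protein, averaged 47.7 CPM in members with LPS and 49.6 CPM in members without, against 22.2 and 55.0 CPM in other cells (1.26 ± 0.07, adjusted p = 2.33e-15). CALM2, a calmodulin gene, fell by 0.29 in members and 0.95 in other cells (0.65 ± 0.03, adjusted p = 7.59e-16), CKLF, a chemokine-like factor, by 0.53 and 1.13 (0.61 ± 0.04, adjusted p = 2.53e-13) and ID2, an inhibitor of differentiation factors, by 0.62 and 1.31 (0.70 ± 0.05, adjusted p = 4.45e-12). All 10 genes kept their call under every alternative run. Leaving the 810 S-phase cells out of the other cells, an alternative added after the data were seen, also kept them.

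**Figure D5:**
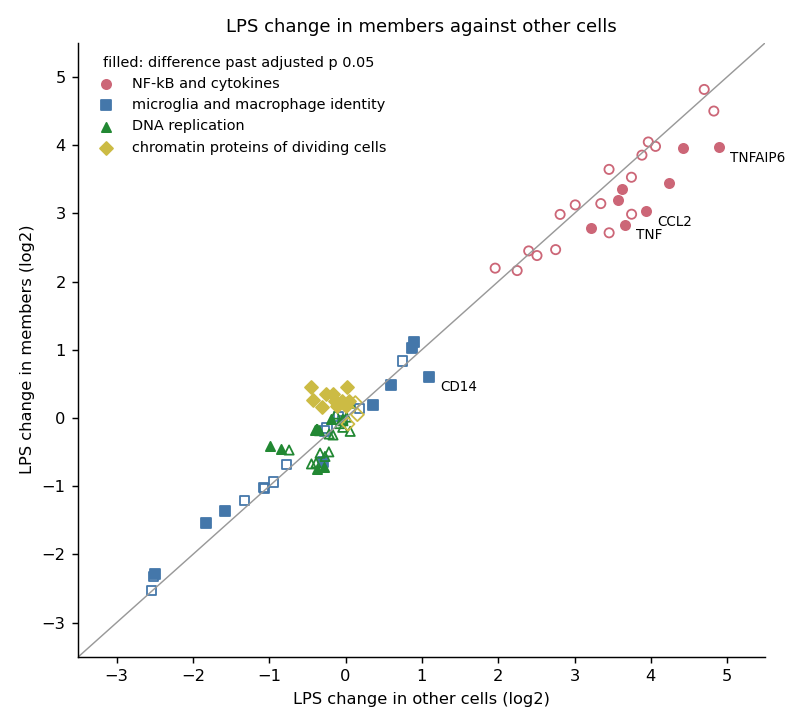
LPS change (log2, over both inhibitor levels) in members (vertical axis) against that in other cells (horizontal axis), each symbol 1 gene of 4 lists, filled where the difference passed at an adjusted p of 0.05, with the line of equal change. All 8 filled NF-kB genes lie below the line, and the 11 filled chromatin genes lie above it.

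Of the 25 NF-kB and cytokine genes, 8 had a lower LPS change in members and none a higher one. The median change was 3.14 in members and 3.62 in other cells, and the median difference -0.28, against 0.02 over all genes. Besides CCL2, the 7 were TNFAIP6 (-1.02 ± 0.19), TNF (-0.80 ± 0.12), TRAF1 (-0.78 ± 0.22), CCL4 (-0.45 ± 0.05), TNFAIP2 (-0.41 ± 0.07), SOD2 (-0.38 ± 0.04) and CCL3 (-0.28 ± 0.05), named after their values were seen. TNF averaged 68.0 CPM in members with LPS and 9.04 CPM in members without, against 157 and 11.7 CPM in other cells. IL1B, NFKBIA and CXCL8 differed by 0.05, 0.05 and 0.05 and did not pass (adjusted p = 0.706, 0.592 and 0.787). Of the 22 identity genes 5 had a higher and 4 a lower LPS change in members, among them CD14, the co-receptor of LPS, with 98.3 and 64.6 CPM in members and 184 and 86.2 CPM in other cells (-0.50 ± 0.06, adjusted p = 5.06e-07). Of the cell-cycle lists, 11 of 14 chromatin genes, 10 of 20 motors, 6 of 8 condensin genes and 6 of 10 cytokinesis genes had a higher change in members and none a lower one. The same held for 7 of 20 kinetochore genes, 6 of 8 tubulins and 4 of 7 CDC25 and G2 cyclin genes. Of 18 APC/C genes 2 had a higher change and none a lower one, which is near the share over all genes. In that list 8 of the 18 differences were below 0. Over all genes tested 7.72% had a higher and 6.52% a lower change in members. Calls went both ways for 5 higher and 2 lower of 25 DNA replication genes, 4 and 1 of 13 mitotic kinases, 3 and 3 of 12 cohesin genes, 3 and 1 of 13 transcription regulators, 3 and 1 of 18 CDK inhibitors and G1 cyclins, 3 and 1 of 9 lamina genes and 2 and 1 of 6 checkpoint genes. The share of S-phase cells among the other cells, which was lower with LPS, moves with these genes, and its part was not tested for the lists.

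The inhibitor changed members and other cells by different amounts for 5 genes upward (0.0361%) and 7 downward (0.0505%). RGCC averaged 62.4 CPM in members with semagacestat and 34.0 CPM in members without, against 168 and 210 CPM in other cells (difference 1.10 ± 0.14, adjusted p = 4.53e-05). In members it had 57.5, 106 and 118 CPM in Sema cultures, 26.7, 23.1 and 43.8 CPM in SemaLPS cultures, 19.3, 11.7 and 15.2 CPM in LPS cultures and 55.6, 52.8 and 49.6 CPM in Ctrl cultures. In other cells it had 218, 329 and 308 CPM in Sema cultures and 269, 412 and 390 CPM in Ctrl cultures, and 37.9, 57.0 and 58.7 CPM in SemaLPS cultures and 43.8, 71.4 and 72.5 CPM in LPS cultures. The members of Sema cultures thus lay above those of Ctrl cultures and the members of SemaLPS cultures above those of LPS cultures, while in other cells the ranges overlapped and each culture with semagacestat lay below the one of the same number without it. MS4A6A, a microglial surface protein, averaged 188 CPM in members with semagacestat and 195 CPM in members without, against 156 and 124 CPM in other cells (-0.39 ± 0.05, adjusted p = 0.000139). OLR1, a receptor of oxidised LDL, changed by 0.17 in members and by -0.17 in other cells on the log2 scale (difference 0.33 ± 0.05, adjusted p = 0.00263). In library 1 alone RGCC and OLR1 did not pass, and OLR1 did not at a hashtag ratio of 10.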

How the data were processed

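Single-cell RNA and hashtag libraries of 12 pooled cultures, 3 per condition, were read as deposited. The matrices hold UMI counts per gene and hashtag for each barcode, with no normalization, and were written by Cell Ranger 6.0.1 per the file headers. Versions listed per the submitters' processing notes are Cell Ranger 3.0.2 and Seurat 4.1.1, with the build hg38. Which annotation was used is not stated in the sources used here.

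Of 28943 barcodes (14535 and 14408 in the libraries; 900761329 UMIs in all), 24662 had a top hashtag with 30 UMIs or more that was 3 or more times the next. Of these, 16937 also had 1000 genes or more and a mitochondrial share of 10% or less. UMIs were added up for each culture across the libraries, and the culture is the replicate. Sums held 2924838 to 8415810 UMIs for members and 29771860 to 53826472 for other cells.

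Shares were compared over cultures with two-sided exact permutation tests, adjusted by Benjamini-Hochberg over 6 comparisons. Sums were tested by quasi-likelihood in edgeR 4.0.16 (R 4.3.3), with genes kept by filterByExpr, scaling by TMM, and calls at an adjusted p under 0.05 over all genes tested. Members were set against other cells with the culture as a block, conditions were compared inside members in 1 fit of all 12 cultures, and terms of state by LPS and state by inhibitor were fitted over 24 sums. Standard errors are approximate, taken from the fold change and its F statistic. The fits were tested on simulated data. Alternatives were DESeq2 1.42.0, its size factors, other thresholds and filters, single libraries and each culture left out in turn.

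Named genes were up to 3 per list by adjusted p at 20 CPM or more in either state, the 10 largest rises and falls outside the cell-cycle lists, for conditions 5 of each and up to 2 per list, and for terms the 10 smallest adjusted p. The members, the lists and these rules were chosen with earlier results of these data known. Promoters came from the RefSeq table on GRCh38.p14. Intervals cover counting error only.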

Additional observations from a re-analysis of the deposited data

Results flagged for a closer look

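The LPS change differed between members and other cells, by the test of the difference itself, for the 10 genes with the smallest adjusted p. On the log2 scale the change in members minus that in other cells was -1.33 for ACSL1, -1.07 for STK17A, -0.90 for CCL2, -0.88 for NIBAN1 and -0.81 for WTAP, and 1.26 for CCSAP, 0.89 for STMN1, 0.70 for ID2, 0.65 for CALM2 and 0.61 for CKLF. For 7 other genes of the NF-kB list the same test passed, with -1.02 for TNFAIP6, -0.80 for TNF, -0.78 for TRAF1, -0.45 for CCL4, -0.41 for TNFAIP2, -0.38 for SOD2 and -0.28 for CCL3.

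The change with semagacestat differed between members and other cells for RGCC (1.10), CXCR4 (0.70), MSR1 (0.51) and OLR1 (0.33), and in the opposite direction for LTB (-0.81), FCGBP (-0.66), HLA-DQB1 (-0.46), MS4A6A (-0.39), CD48 (-0.26) and MAF (-0.25), all on the log2 scale. CXCR4, a chemokine receptor, averaged 11.1 CPM in members with semagacestat and 8.94 CPM in members without, against 16.4 and 22.2 CPM in other cells. Only MS4A6A of these 10 kept its call in every alternative run, single cultures left out included.

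Barcodes left out of all comparisons because no hashtag stood clear also held the signal of the rule. Of 2460 such barcodes that passed the gene and mitochondrial filters, 15.5% reached the member score, against 9.46% of the cells kept, and their median depth was 52507 UMIs. The part of mixed cells in this share was not tested.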

How the results depend on the processing

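Of 88 named genes called between the states, 78 were called in every setting and 88 with any 1 culture left out. For LPS against Ctrl 31 of 51 were called in every setting and 41 with any culture left out, for SemaLPS against Sema 37 and 46 of 53, for the LPS term 10 and 10 of 10 and for the inhibitor term 1 and 4 of 10.

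Counts of genes called moved by over 1.5 times in these settings. With a single library LPS against Ctrl, which called 1966 genes higher and 1819 lower with both, gave 1297 higher in library 1, and 1216 higher and 1159 lower in library 2; SemaLPS against Sema gave 1411 higher and 1405 lower in library 1, and 1452 and 1418 in library 2. The LPS term gave 556 higher and 398 lower in library 1, 406 and 377 in library 2, 435 and 2098 with no filter on low counts, and 713 higher by DESeq2. The inhibitor term gave 3 higher by DESeq2, 23 higher and 42 lower with no filter, 1 and 3 at a hashtag ratio of 10, 0 and 2 in library 1, and 2 lower in library 2. Sema against Ctrl gave 13 higher and 20 lower with no filter. SemaLPS against LPS gave 26 higher and 42 lower with no filter, 0 and 0 at a score of 3 or more, 2 and 1 at 10 or more, 0 and 0 at a hashtag ratio of 10, 0 and 1 in library 1, 0 lower in library 2 and 1 lower by DESeq2. With 1 culture left out, Sema against Ctrl gave 0 to 1 genes higher, SemaLPS against LPS 0 to 1 higher and 1 to 5 lower, and the inhibitor term 2 to 9 higher and 5 to 14 lower. The causes were not tested.

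The late mitosis share changed direction in comparisons of semagacestat that never passed. The difference with the inhibitor against without it was -0.466 points at a hashtag ratio of 10, -2.35 in thinned cells, -0.197 in library 1 and -2.17 to 3.19 with 1 culture left out. That of Sema against Ctrl was 0.461, 1.27 and, with 1 culture left out, -3.10 to 1.00, and that of SemaLPS against LPS was -1.39 at the ratio of 10 and -5.97 in thinned cells. In SemaLPS against Sema, TPX2 reached -0.083 at a score of 10 or more and CDH1 0.00078 in library 2.

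With the replicate number as a block, the LPS difference in the late share, 18.6 points, had an exact permutation p of 0.00926 and an adjusted p of 0.0556, with 0.00926 the smallest p this design allows, and SemaLPS against LPS gave 4 higher and 10 lower. Same-numbered cultures correlated between -0.021 and 0.145 in their deviations from the condition means (18 pairs, 5658 genes). Cultures of different numbers correlated between -0.243 and 0.129. Of the 12 cultures 9 correlated best with a culture of their own number. The main comparisons of conditions held no block because the design states none. The block brought no other count of calls beyond 1.5 times.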
